A study of Callithrix jacchus with 4 samples.

Results

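The genes described here move iron into and out of cells, store it, regulate its handling and break down haem. The set held 10 genes chosen by name: TF, TFRC, FTH1, FTL, CP, SLC40A1, SLC11A2, ACO1, IREB2 and HMOX1. An array feature was assigned to a gene when that gene's symbol was the feature's only symbol in the platform annotation. By that rule 8 of the 10 genes were measured, with 18 of the 43931 features on the array. FTH1 and IREB2 had no such feature and were not analysed here.

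The samples were laser-microdissected strips of the substantia nigra pars compacta, the midbrain nucleus that holds dopamine neurons, from 5 male common marmosets aged 3 years. Of these, 4 animals received 2.5 mg/kg of the dopamine-neuron toxin MPTP in 1 intravenous dose and were killed after 2 h, after 6 h, after 1 day and after 14 days, and 1 animal received vehicle. Each time was therefore 1 MPTP animal, and each of the 4 human 2-colour arrays paired its RNA, labelled with Cy5, with Cy3-labelled RNA of the 1 vehicle animal, without a dye swap. The strips were cut from stained sections and held all the cells there, not dopamine neurons alone.

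Iron enters many cells when transferrin binds its receptor, and the divalent metal transporter then moves the iron out of the endosome. Ferritin stores it, ferroportin exports it, and the ferroxidase ceruloplasmin oxidises it for loading onto transferrin. Iron regulatory proteins bind stem-loops in several of these mRNAs when iron is low, which blocks translation of ferritin and ferroportin and stabilises the mRNA of the transferrin receptor. The substantia nigra is known for its high iron content, for neuromelanin that binds iron, and for iron build-up in Parkinson's disease.

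All values are log2 ratios of RNA, MPTP over vehicle, with each array centred on the median of its features, and a gene's value is the median over its features. The log scale and the direction were inferred, from the look of the numbers and the labelled dyes, and a ratio of vehicle over MPTP would turn every sign. Genes were counted from 2-fold on, that is from a log2 ratio of 1 or −1. With 1 animal per time and 1 vehicle animal there was no replicate, so no p-value is given, and an SD is taken over the features of a gene on 1 array. The 4 values of a gene share the vehicle RNA and are not independent of each other. Over all 18014 genes the SD of the ratios was 0.71 after 2 h, 0.57 after 6 h, 0.48 after 1 day and 0.47 after 14 days. Ratios carry no level, so whether defining markers of dopamine neurons were abundant in the strips cannot be read from them. TH, which starts dopamine synthesis, lay at 0.90 ± 0.52 (SD, 2 features), 0.64 ± 0.62, 0.39 ± 0.68 and 0.50 ± 0.59 from 2 h to 14 days. The dopamine transporter SLC6A3 was listed as exactly 0 on all 4 arrays. The median of 11 dopamine neuron markers was 0.22, 0.23, 0.21 and 0.14. Those past 2-fold were LMX1B, at 1.76 after 2 h, ALDH1A1, at 1.06 after 6 h and 1.23 after 1 day, and KCNJ6, at 1.01 after 1 day. These made 1, 1, 2 and 0 of 11 higher, beside 5.47%, 3.37%, 2.27% and 2.16% of all genes. Of the 10 markers without SLC6A3, 3, 0, 3 and 1 lay below 0, the lowest at −0.76 after 2 h.

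CP was the 1 member that passed 2-fold, and it was lower than in the vehicle animal on every array. The other 7 measured genes stayed within 2-fold at every time when their features were combined. HMOX1 lay below 0 throughout and TFRC was highest after 14 days, while FTL stayed close to 0. SLC40A1 and TF had features that disagreed, and single features of both passed 2-fold. Of the 18 member features, 1, 1, 0 and 1 were at least 2-fold higher from 2 h to 14 days. Of all features with 1 gene symbol, 6.76%, 4.42%, 3.22% and 3.13% were higher. Member features at least 2-fold lower numbered 2, 3, 1 and 1, beside 9.89%, 5.99%, 2.47% and 3.09%. In tissue RNA, fewer cells of a type and less RNA per cell cannot be told apart.

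At 2 h, 1 of 8 members was lower and none was higher, where 7.22% of all genes were lower and 5.47% higher. At 6 h the member counts were again 1 and 0, beside 3.89% and 3.37% of all genes. At 1 day they were 1 and 0, beside 1.67% and 2.27%, and after 14 days 1 and 0, beside 2.12% and 2.16%. These counts rest on CP alone. The median of the 8 members was −0.42 after 2 h, −0.15 after 6 h, −0.04 after 1 day and −0.09 after 14 days, where the median of all genes was 0.03, 0.03, 0.02 and 0.01. Members below 0 numbered 5, 6, 6 and 5 of 8, beside 47.9%, 46.8%, 47.7% and 45.1% of all genes.

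**Figure D1:**
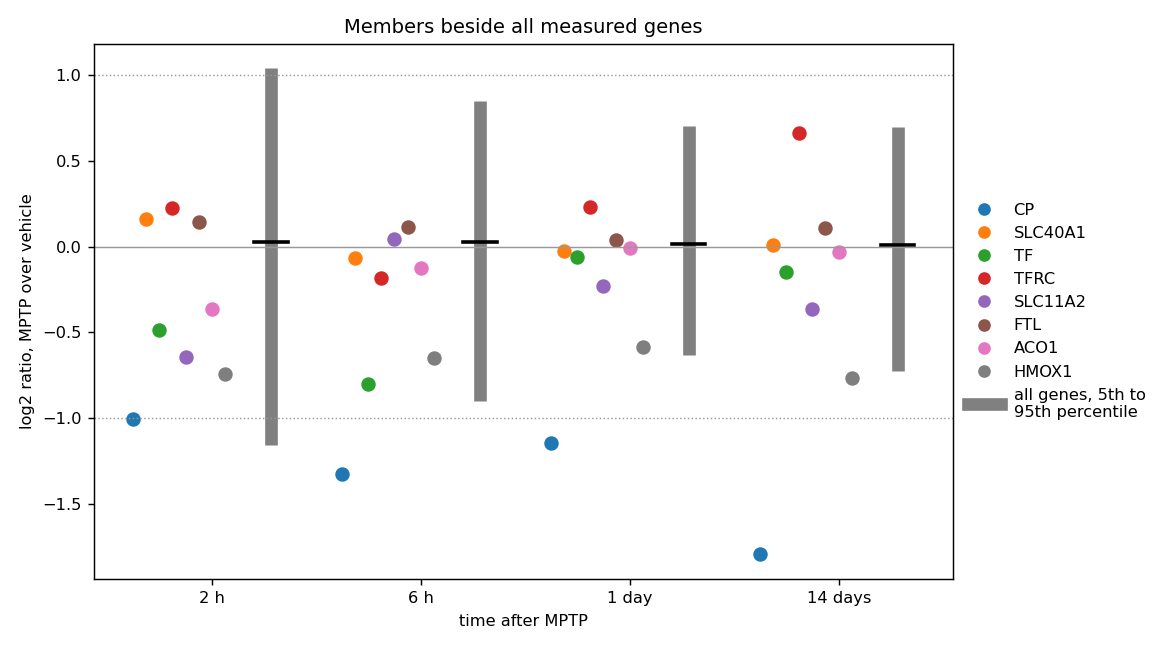
Log2 ratio of MPTP over vehicle (y axis) for each of 8 members (coloured points) at each time (x axis), beside all 18014 genes (grey bar, 5th to 95th percentile, with a black line at the median). CP lies below −1 at every time, and below the grey bar after 6 h, 1 day and 14 days, while TFRC is the highest member after 2 h, 1 day and 14 days.

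Among the export genes, CP encodes ceruloplasmin, the copper-bearing ferroxidase whose inherited loss leads to iron build-up in the basal ganglia. In the brain it is known as a protein of astrocytes, held at the cell surface. Its ratio was −1.004 after 2 h, −1.33 after 6 h, −1.15 after 1 day and −1.79 after 14 days. It was thus 2.01-fold lower than vehicle after 2 h, 2.51-fold after 6 h, 2.21-fold after 1 day and 3.47-fold after 14 days. The 2 h value sat at the threshold, and it was −0.98 without centring of the array and −0.71 with the arrays scaled to 1 spread.

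CP was read by 1 feature, so there was no second feature to set against it. Among the 10603 genes with 1 feature, 8.69% were at least 2-fold lower after 2 h, 4.86% after 6 h, 2.32% after 1 day and 2.87% after 14 days. Of all genes, 7.11% lay below CP after 2 h, 1.70% after 6 h, 1.09% after 1 day and 0.255% after 14 days. On all 4 arrays together, 39 of 18014 genes were at least 2-fold lower, and 5 other genes lay at or below CP at every time. The shared vehicle sample enters all of these values. The dye enters them too, since MPTP RNA was in Cy5 on every array without a dye swap.

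The median of 8 astrocyte markers was −0.48 after 2 h, −0.29 after 6 h, −0.02 after 1 day and 0.08 after 14 days. Those below 0 numbered 7, 6, 4 and 2 of 8, beside 47.9%, 46.8%, 47.7% and 45.1% of all genes. Single astrocyte genes ranged from −1.60 to 0.18 after 2 h and from −0.84 to 0.31 after 14 days. The calcium-binding protein gene S100B, with 1 feature, lay at −1.60, −0.41, −0.05 and 0.02. The gap junction gene GJA1 lay at −1.34 ± 0.48 (SD, 2 features), −0.88 ± 0.49, −0.33 ± 0.31 and 0.19 ± 1.24. The filament gene GFAP lay at −0.53, −0.37, −0.92 and −0.84, but 1 of its 2 features was listed as exactly 0 on all arrays. With those zeros taken as not measured, GFAP lay at −1.05, −0.73, −1.84 and −1.69, lower by 2-fold or more at 3 of 4 times, as its remaining feature read it. The median of the astrocyte list was then −0.48, −0.31, −0.02 and 0.08. AQP4, the water channel of astrocyte endfeet, lay at 0.18, −0.20, −0.05 and 0.16. The part of astrocyte RNA in the CP values was not tested.

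The genes with the pattern most like CP were sought among 2433 genes with 2 or more features whose SD over features was at most 0.5 on every array. By the root mean square difference over the 4 arrays the nearest 3 were SPP1 (0.45), ZFP30 (0.46) and SNX10 (0.56). SPP1, osteopontin, had 10 features and lay at −1.57, −1.15, −0.84 and −1.20 from 2 h to 14 days. ZFP30, a zinc finger gene, lay at −1.27, −1.28, −1.13 and −0.92. SNX10, a sorting nexin, lay at −1.60, −1.25, −0.61 and −1.02. In these 3 genes the 14 day ratio was closer to 0 than the 2 h ratio, whereas in CP it was further from 0.

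SLC40A1 encodes ferroportin, the exporter through which iron leaves cells. It had 3 features, each annotated to a different transcript record, so differences between records and between single features cannot be told apart. The feature of the RefSeq mRNA record lay at 1.49 after 2 h, 1.01 after 6 h, 0.64 after 1 day and 1.14 after 14 days, at least 2-fold higher at 3 of 4 times. The features of the other records lay at 0.12 and 0.16 after 2 h, −0.38 and −0.06 after 6 h, −0.03 and −0.16 after 1 day, and −0.18 and 0.01 after 14 days.

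At every time the RefSeq feature stood above both others, by more than the distance between those 2. The gene value followed the lower pair, at 0.16, −0.06, −0.03 and 0.01. The SD over the 3 features was 0.78, 0.73, 0.43 and 0.72, wider than in 74.9%, 82.4%, 69.2% and 87.7% of genes with 2 or more features. Whether ferroportin mRNA differed from vehicle therefore depends on which feature is read.

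**Figure D2:**
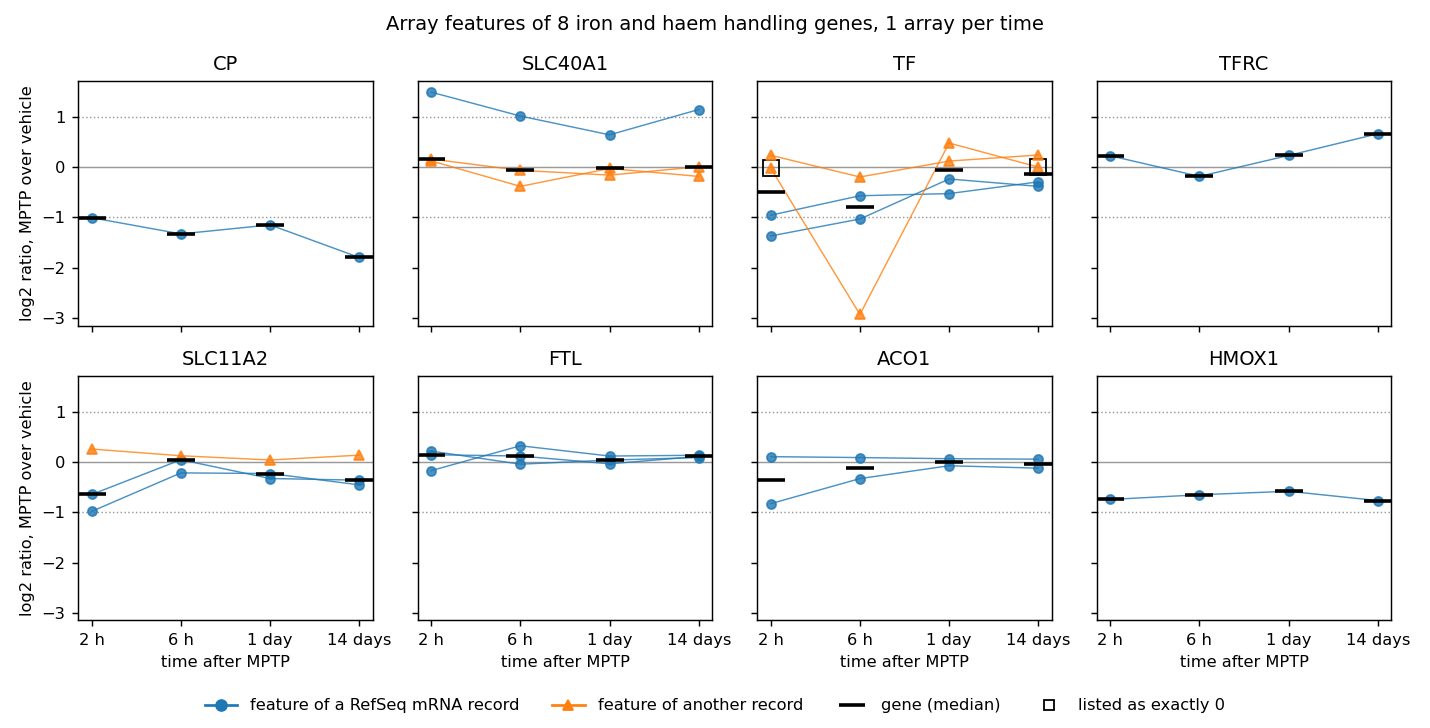
Log2 ratio of MPTP over vehicle (y axis) for every feature of the 8 measured members by time after MPTP (x axis), with circles for features of RefSeq mRNA records, triangles for other records, black bars for the gene's median and open squares for values listed as exactly 0. The SLC40A1 circles lie above its triangles at all times, the TF features spread from −2.92 to −0.20 after 6 h, and the FTL features lie within 0.39 of each other after 2 h.

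Among the uptake genes, TF encodes transferrin, the iron carrier of plasma, which in the brain is made largely by oligodendrocytes and the choroid plexus. The gene value was −0.49 ± 0.76 (SD, 4 features) after 2 h, −0.80 ± 1.21 after 6 h, −0.06 ± 0.44 after 1 day and −0.15 ± 0.28 after 14 days. The pair of features from the RefSeq mRNA record lay at −1.37 and −0.95 after 2 h, −1.03 and −0.57 after 6 h, −0.24 and −0.53 after 1 day, and −0.38 and −0.29 after 14 days. Both were below 0 at every time and furthest from 0 after 2 h.

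The other TF record gave a different picture. One of its features lay at 0.23, −0.20, 0.12 and 0.24. The other was listed as exactly 0 after 2 h and 14 days, and lay at −2.92 after 6 h and 0.48 after 1 day. With exact zeros taken as not measured, the TF value was −0.95 after 2 h and −0.29 after 14 days. With the mean over features in place of the median, TF passed 2-fold after 6 h (−1.18), which rests on the feature at −2.92.

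Oligodendrocytes are a source of TF. The median of their markers over 9 genes was −0.18, 0.03, −0.05 and 0.08 from 2 h to 14 days. At least 2-fold lower were 1, 2, 1 and 0 of them, beside 7.22%, 3.89%, 1.67% and 2.12% of all genes. Those genes were ERMN, at −1.46 after 2 h and −1.60 after 6 h, and the myelin protein gene MBP. MBP lay at −1.57 ± 0.94 (SD, 2 features) after 6 h and at −1.06 after 1 day. MAG, a myelin glycoprotein, lay at 0.64, 0.17, 0.18 and 0.20. Choroid plexus and ependyma markers had medians over 4 genes of 0.37, 0.26, 0.09 and 0.29. Of these, TTR lay at 1.22, −0.49, 0.23 and 0.69, and it was the 1 marker below 0 after 6 h, where FOXJ1, FOLR1 and AQP1 lay at 0.14, 0.38 and 0.50. The part of these cells in the TF values was not tested.

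TFRC encodes the transferrin receptor, which brings transferrin-bound iron into cells. With 1 feature, it lay at 0.23 after 2 h, −0.18 after 6 h, 0.23 after 1 day and 0.66 after 14 days. The 14 day value, 1.58-fold higher than vehicle, was the highest gene value of any member at any time, and 5.51% of all genes lay above it on that array. Erythroid precursors are known for abundant transferrin receptor, and erythroid markers had medians over 8 genes of 0.73, 0.10, 0.49 and 0.81, with 7, 4, 7 and 7 of 8 above 0. The 1, 4, 1 and 1 below 0 stood beside 47.9%, 46.8%, 47.7% and 45.1% of all genes. At 14 days the erythroid genes ranged from −0.24 to 1.12, with HBA1 at 1.12 and HBB at 0.97. HBA1 and HBA2, both alpha-globin genes, lay at 2.66 and 1.19 ± 2.01 (SD, 2 features) after 2 h and at 1.31 and 1.001 after 6 h. HBA1 and HBA2 are near-identical copies, so their features may share RNA. HBB lay at 0.49 after 2 h and at −0.37 after 6 h, when 4 of the 8 erythroid genes were below 0. Brain endothelium also carries the receptor, and endothelial markers had medians over 8 genes of 0.09, 0.30, 0.32 and 0.27. Of these, the receptor gene TIE1 lay at −0.77, −1.12, −0.34 and 3.85, with 1 feature. The part of either cell type in the TFRC values was not tested.

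SLC11A2 encodes the divalent metal transporter DMT1, which carries iron out of endosomes. Its value was −0.65 ± 0.64 (SD, 3 features) after 2 h, 0.04 ± 0.18 after 6 h, −0.23 ± 0.19 after 1 day and −0.36 ± 0.32 after 14 days. The features of the RefSeq mRNA record lay at −0.98 and −0.65 after 2 h, and that of the other record at 0.26. At 14 days these features lay at −0.46, −0.36 and 0.13. The feature of the other record was the highest of the 3 on every array. The gene has transcripts with and without an iron-responsive stem-loop, and the annotation does not say which of them each feature reads.

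In storage, FTL encodes the ferritin light chain, which helps to mineralise iron in the ferritin shell. Its 3 features were all of 1 record. They lay at 0.14, 0.21 and −0.17 after 2 h, 0.12, −0.04 and 0.32 after 6 h, −0.04, 0.04 and 0.12 after 1 day, and 0.11, 0.09 and 0.13 after 14 days. The gene value was 0.14 ± 0.21 (SD, 3 features), 0.12 ± 0.18, 0.04 ± 0.08 and 0.11 ± 0.02. Among genes with 2 or more features, 23.7%, 28.7%, 15.1% and 3.95% had a smaller SD, so the FTL features were among the closer ones on these arrays. The range of its gene value over the 4 times was 0.11, and 2.63% of all genes had a smaller range.

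ACO1 encodes iron regulatory protein 1, which is a cytosolic aconitase when it holds an iron-sulphur cluster and binds RNA when it does not. Its pair of features lay at −0.83 and 0.10 after 2 h, −0.33 and 0.09 after 6 h, −0.08 and 0.06 after 1 day, and −0.12 and 0.05 after 14 days. The gap between them was 0.93 after 2 h and 0.14 after 1 day. One feature stayed between 0.05 and 0.10 at all times, so the ratio of ACO1 below 0 rested on the other.

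HMOX1 encodes haem oxygenase 1, the inducible enzyme that opens the haem ring and frees its iron, and a widely used marker of oxidative stress. With 1 feature, it lay at −0.75 after 2 h, −0.65 after 6 h, −0.58 after 1 day and −0.77 after 14 days. It was therefore 1.50-fold to 1.70-fold lower than vehicle at each time, with a range over time of 0.19. Of all genes, 12.0% lay lower after 2 h, 9.40% after 6 h, 5.75% after 1 day and 4.36% after 14 days.

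HMOX2, the constitutive haem oxygenase, lay at 0.45 ± 0.48 (SD, 2 features) after 2 h, 0.10 after 6 h, 0.01 after 1 day and 0.15 after 14 days. BACH1, a repressor of HMOX1, lay at −1.70 after 2 h and at −0.29, −0.20 and −0.55 later, with 1 feature. Of 7 other targets of the stress-response factor NRF2, none passed 2-fold at any time, and their medians were −0.09, −0.12, 0.05 and −0.01. Of all genes, 7.22%, 3.89%, 1.67% and 2.12% were lower by 2-fold or more, and 5.47%, 3.37%, 2.27% and 2.16% higher. Among the 7 targets, NQO1 lay at 0.14, −0.18, 0.36 and −0.27. Microglia are a known source of haem oxygenase 1 in the brain, and their markers had medians over 9 genes of 0.03, 0.42, −0.11 and 0.27, with CSF1R, the receptor that sustains these cells, at 0.80, 0.42, 0.01 and 0.34. The signalling adaptor TYROBP lay at 2.01, 0.86, 0.19 and 0.44. Of the 9 markers, 4, 4, 5 and 2 lay below 0, beside the shares of all genes below 0 given above. Among them, C1QA lay at −0.66 after 2 h, −0.74 after 6 h and −0.76 after 1 day. The part of microglia in the HMOX1 values was not tested.

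Differences between times take out the vehicle sample, apart from its measurement error, and set 1 MPTP animal against another. No member passed 2-fold between any of the 4 pairs of times compared. For 6 h against 2 h, 4.9% of all genes were higher by 2-fold or more and 3.98% lower. For 1 day against 6 h these shares were 3.59% and 2.69%, for 14 days against 1 day 2.26% and 2.53%, and for 14 days against 2 h 4.85% and 4.33%. SLC11A2 had the largest difference at 6 h against 2 h, at 0.69, and TF at 1 day against 6 h, at 0.74.

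CP had the largest difference at the later steps, at −0.65 for 14 days against 1 day and −0.79 for 14 days against 2 h. TFRC was 0.43 higher after 14 days than after 1 day, after steps of −0.41 and 0.42. HMOX1 differed by 0.09, 0.07 and −0.19 from step to step. The CP ratio was below −1 at every time against vehicle, but differences of CP between MPTP animals stayed within 2-fold.

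**Figure D3:**
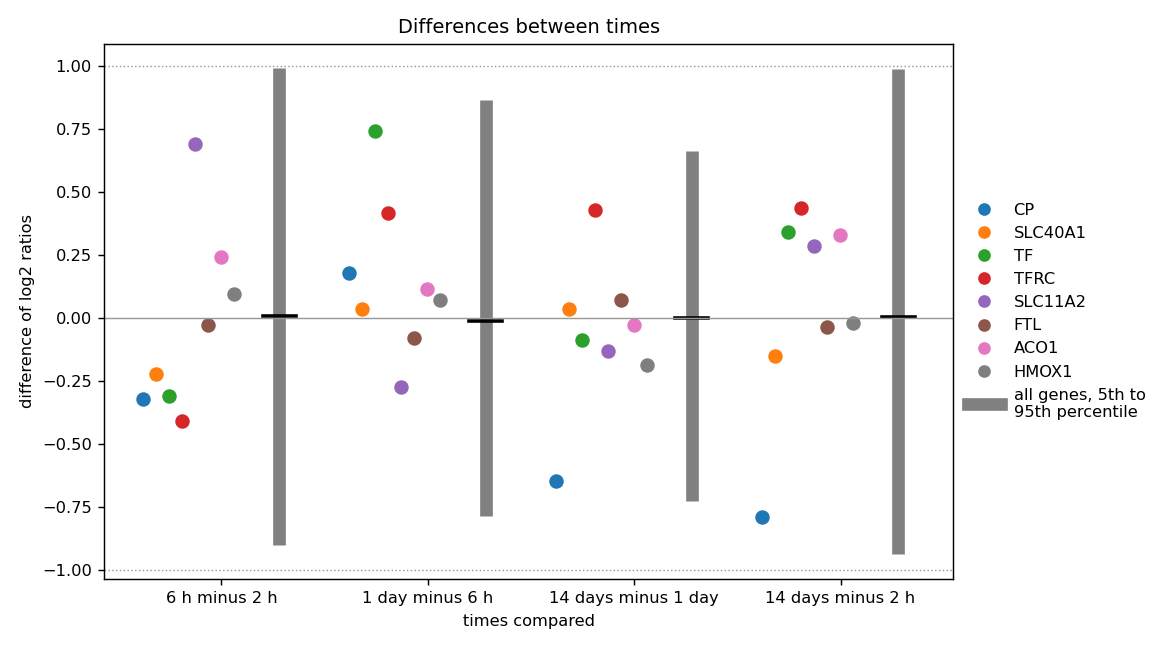
Difference of log2 ratios (y axis) between 4 pairs of times (x axis), later minus earlier, for 8 members (coloured points), beside all 18014 genes (grey bar, 5th to 95th percentile, with a black line at the median). All members lie between −1 and 1 for each pair, with CP lowest at −0.79 for 14 days minus 2 h and TF highest at 0.74 for 1 day minus 6 h.

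The wider pathway was described with 8 lists, of whose 86 genes 76 were measured. At 2 h, 4 were at least 2-fold higher and 8 lower, 5.26% and 10.5% of them. At 6 h none was higher and 5 were lower (6.58%), after 1 day 1 was higher (1.32%) and none lower, and after 14 days 2 were higher and 2 lower (2.63% each). The median of these 76 genes was −0.09, −0.08, 0.002 and −0.04. The shares of all genes at each time are those given above for the members.

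More genes of iron-sulphur cluster assembly lay below 0 than above it, though after 1 day only by 10 to 8. This machinery builds the cofactor that turns iron regulatory protein 1 into an aconitase. Of 18 measured, 14 lay below 0 after 2 h, 14 after 6 h, 10 after 1 day and 14 after 14 days, with medians of −0.46, −0.34, −0.06 and −0.15. Of all genes, 47.9%, 46.8%, 47.7% and 45.1% lay below 0 at these times. The co-chaperone HSCB lay at −2.12, −1.37, −0.58 and −0.997, the scaffold ISCU at −1.27, −0.96, −0.57 and −0.49, and the carrier NFU1 at −0.97, −1.47, −0.12 and −0.29. These 3 genes had 1 feature each and were below 0 on every array.

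CIAPIN1, of the cytosolic branch, lay at 3.39 ± 4.57 (SD, 2 features) after 2 h, so its features disagreed by more than the value itself. With genes of 2 or more features alone, the list medians were −0.12, −0.12, 0.12 and −0.10.

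Among 11 other uptake genes, STEAP2, a metalloreductase, lay at −1.57, −1.13, −0.64 and −1.07, and SLC39A8, a transporter of zinc and other divalent metals, at −1.25, −1.12, −0.24 and −0.27. TFR2, the second transferrin receptor, lay at 1.86, 0.82, 0.55 and 0.56. LTF, lactoferrin, lay at −1.07, 0.76, 0.11 and −0.95. The list went both ways, with medians between −0.01 and 0.08. After 2 h, 1 gene was at least 2-fold higher and 3 lower, beside 5.47% and 7.22% of all genes. STEAP2, SLC39A8, TFR2 and LTF had 1 feature each. Among all genes with 1 feature, 7.52% were higher and 8.69% lower after 2 h.

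Of 8 genes of iron export and hepcidin control, BMP2, a signal for hepcidin in liver, passed 2-fold, at 1.01 after 2 h. HEPH, the ferroxidase related to ceruloplasmin, lay at −0.28 ± 0.66 (SD, 2 features), −0.37, −0.01 and 0.003. Of 7 genes of ferritin turnover and iron chaperones, none passed 2-fold at any time, beside the shares of all genes given above. NCOA4, the receptor that delivers ferritin to lysosomes, lay at −0.14, −0.13, −0.04 and 0.07. FBXL5, the ligase subunit that marks iron regulatory protein 2 for breakdown, lay at −0.74, −0.73, 0.10 and 0.04.

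Among 10 genes of haem synthesis, ALAD, the second enzyme of the pathway, lay at −1.42 ± 1.28 (SD, 2 features) after 2 h and at −0.22, −0.10 and −0.13 later. ALAS2, the erythroid first enzyme, lay at 0.39, −0.12, 0.45 and 1.07. ALAS1, the first enzyme outside erythroid cells, lay at −0.28, 0.10, 0.07 and −0.15. At 14 days ALAS2 stood beside the erythroid markers given above, a list to which it also belongs.

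Among 11 genes of haem breakdown, transport and scavenging, CD163, the receptor for haptoglobin-bound haemoglobin on macrophages, lay at −0.05, −0.12 and 0.20 and then at 1.50 after 14 days. On the same array microglial markers ranged from −0.34 to 1.58 over 9 genes, with a median of 0.27. The complement gene C1QC was the highest of them and C1QB lay at 0.27, while C1QA was listed as exactly 0 and CD68 lay at −0.34. ABCG2, an efflux pump that also carries porphyrins, lay at −0.73, −1.44, −0.07 and 0.14. Of 5 other genes whose mRNA is known to bear an iron-responsive element, CDC14A lay at −1.94 ± 1.51 (SD, 2 features), −0.87, −0.52 and −1.08. The hypoxia factor EPAS1 lay at −0.61, 0.11, 0.08 and 0.38.

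**Figure D4:**
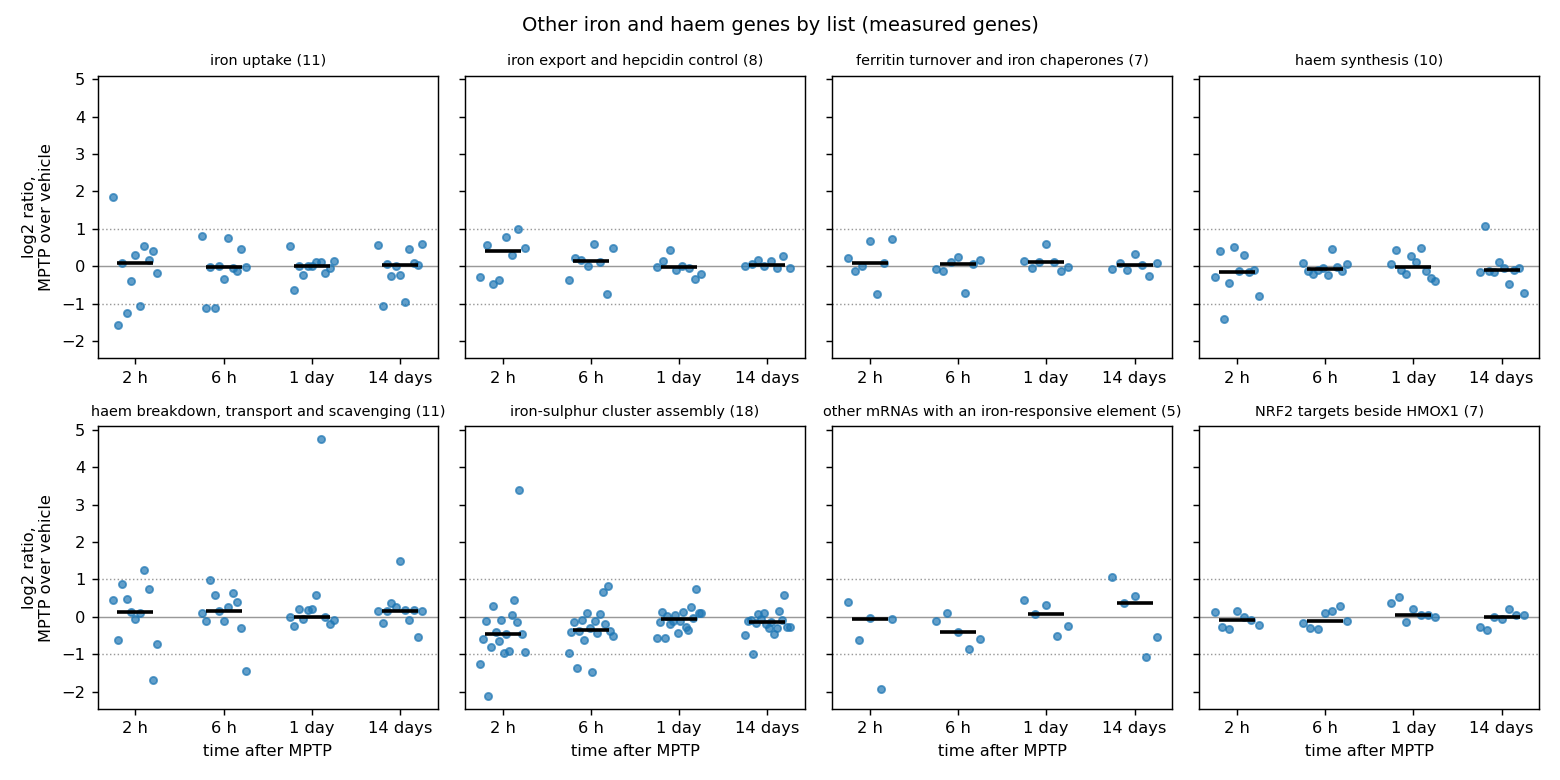
Log2 ratio of MPTP over vehicle (y axis) by time after MPTP (x axis) for the measured genes of 8 lists around iron and haem (points, number of genes in each panel's title), with the list median as a black bar. The iron-sulphur panel has 14 of 18 points below 0 after 2 h and its median at −0.46, and the single highest points are FLVCR2 after 1 day and CIAPIN1 after 2 h.

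**Figure D5:**
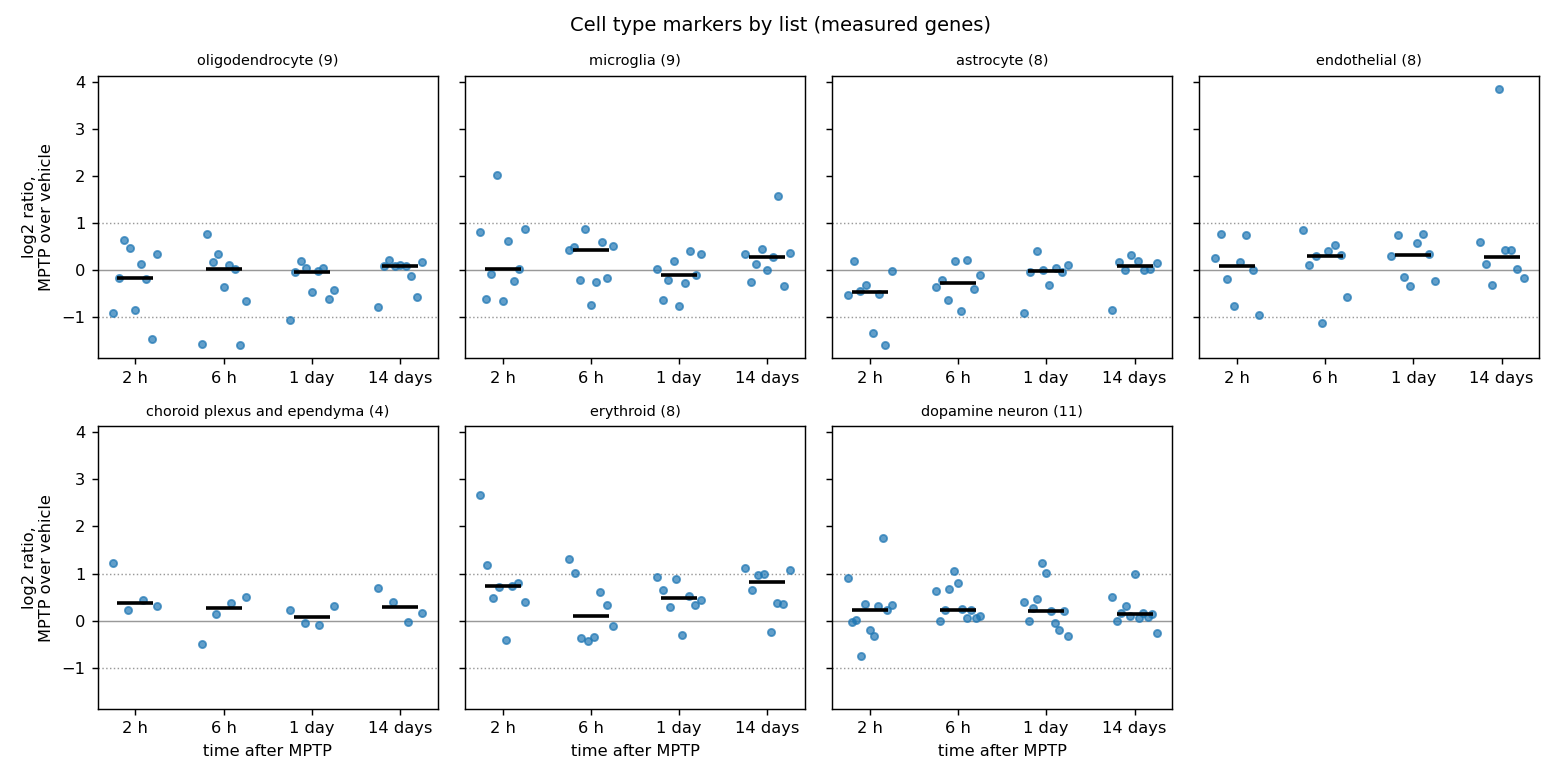
Log2 ratio of MPTP over vehicle (y axis) by time after MPTP (x axis) for the measured markers of 7 cell types (points, number of genes in each panel's title), with the list median as a black bar. The erythroid median lies at 0.81 and the astrocyte median at 0.08 after 14 days, and the astrocyte median at −0.48 after 2 h.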

How the data were processed

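Each array had 1 deposited value per feature, taken here as a log10 ratio, Cy5 (MPTP) over Cy3 (vehicle). This reading rests on the labelled dyes and on the numbers themselves: the medians of the 4 columns were 0.00633, 0.000146, 0.000277 and 0, sizes stopped at exactly 2, and exact zeros made up 4.70% to 7.38%. No pair of arrays was negatively correlated over features (Pearson r 0.35 to 0.59). Per the labels' protocols, RNA was amplified in 2 rounds. For the scanner software, background correction and normalization, what the authors did is not given in the sources used here. Spot intensities were not used here, so signal over background is unknown, and precision is limited by the number of animals, 1 per group. Marmoset RNA was read on human arrays, and how well each feature matches marmoset RNA was not tested.

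Each array was turned to log2, centred on its median (a shift of at most 0.02), and features with 1 gene symbol (29033 of 43931, 18014 genes) were combined by their median (pandas 2.3.3, Python 3.11.15). Older symbols were matched for listed genes. The calculation was tested on simulated data. Whether features of 1 record are repeat spots or different probes is not stated. No test across genes was run, since each group was 1 animal.

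The members, the lists and the rules were chosen with earlier results of these data known. The text names all measured members, and of each list up to 4 genes by the largest ratio among those at least 2-fold from vehicle on any array, together with the 3 genes nearest to a member past 2-fold. HMOX2, NQO1, NCOA4, FBXL5, HEPH, ALAS1, EPAS1, TH, SLC6A3, GFAP, AQP4, MAG, HBB, CSF1R, C1QA, C1QB, CD68, FOXJ1, FOLR1, AQP1, FLVCR1, FTHL17 and HFE fall outside that rule and were named after their values were seen. No probe or transcript sequence was used here.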

Additional observations from a re-analysis of the deposited data

How the results depend on the processing

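Counts of members at 2-fold rest on CP and on how features are combined. The 1 lower member became 0 at 2 h without centring, with arrays scaled to 1 spread and at 3-fold. It became 0 at 6 h and 1 day at 3-fold, and 0 at all 4 times when 2 or more features had to pass, since CP has 1. With arrays scaled to 1 spread, CP was lower by 2-fold at 14 days than at 2 h (1 member against 0). With the mean over features, 2 members were lower at 6 h and 1 was higher at 1 day than at 6 h, the addition being TF. With only features of RefSeq mRNA records, chosen after seeing the data, 2 members were lower at 2 h (CP and TF) and 1 was higher at 2 h, 6 h and 14 days (SLC40A1). With the sign turned, 0 members were lower and 1 was higher at each time, CP lay at 1.00, 1.33, 1.15 and 1.79, and the 2 h median of members at 0.42. Of 120 counts under alternatives 96 were within 1.5 times, but most of the main counts were 0, so staying at 0 says little. Of 192 list medians 190 moved by less than the typical SD between features, a rule that allows a change of sign. The iron-sulphur median after 1 day went from −0.06 to 0.12 with genes of 2 or more features and was classed as unmoved. Of 192 gene values, 25 were classed as moved, and 4, all with the sign turned, as reversed. Taking exact zeros as not measured changed no count of members. For cell type markers, an alternative added after seeing the data, it changed the astrocyte genes at least 2-fold lower to 3, 0, 1 and 1 of 8 from 2 h to 14 days, against 2, 0, 0 and 0, and moved the erythroid median after 1 day to 0.59, against 0.49. In the main analysis 7.22%, 3.89%, 1.67% and 2.12% of all genes were at least 2-fold lower. No paired analysis was possible because each group is 1 sample.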

Other observations

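FLVCR2, a transporter related to the haem exporter FLVCR1, had the highest ratio of any listed iron or haem gene, at 4.75 at 1 day, against 1.26 at 2 h, 0.63 at 6 h and −0.10 at 14 days, from 1 feature. FLVCR1 lay at 0.59 at 1 day. FTHL17, a ferritin heavy chain-like gene and no substitute for FTH1, lay at 0.27, 0.04, 0.10 and 0.10. HFE, the haemochromatosis gene, had 4 features with an SD of 2.07 at 2 h around a value of −0.46.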
